A study of Mus musculus with 15 samples.

Results

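Matrix metalloproteinases are zinc-dependent enzymes that cut collagens, laminins, elastin and many cell-surface and signalling proteins, and the tissue inhibitors of metalloproteinases (TIMPs) bind their active sites and block them. Most are secreted as inactive proenzymes, which plasmin, other metalloproteinases or a membrane-bound member activate by removing the propeptide. In the gut, Mmp7 (matrilysin) is known mainly as a product of epithelial cells and of intestinal adenoma cells, whereas most other members are known mainly from fibroblasts, endothelial cells, neutrophils and macrophages. The members described here are Mmp7, Mmp10, Mmp3, Mmp13, Mmp12, Mmp9, Mmp2, Mmp14, Timp1 and Timp3, taken as every probe that carries one of these 10 gene names in the scanner files. There were 14 such probes among 41174 on the array, and 9 of the 10 genes passed the brightness filter, among 21301 genes tested.

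The arrays measured RNA from colon of female Swiss Webster mice, all of which received the carcinogen azoxymethane (7.4 mg/kg) and then 3 cycles of 4% dextran sulfate sodium in the drinking water, a compound that injures the colon lining. The 4 groups, of 2 mice each, were polypoid areas of mice given 5-aminosalicylic acid at 75 mg/kg (5-ASA, also called mesalamine, used against gut inflammation), polypoid areas of untreated mice, inflamed areas of mice given 5-ASA, and inflamed areas of untreated mice, for which the design text names a vehicle. The mice were killed at 18 weeks of age, and laser capture took the areas out of frozen sections, so each sample is RNA from a small captured area of 1 mouse after 2 rounds of amplification. Mice entered the experiment aged 7 weeks, and dextran sulfate sodium was first given when they were aged 9 weeks. A cycle is listed as 7 days of the compound and 21 days of water. The time from the last exposure to death is not listed in the sample details. No mouse without carcinogen and dextran sulfate sodium was among the samples analysed here, so every comparison is between injured colons. Values are log2 of the sample over a universal mouse reference RNA hybridised to the same array, with 1 value per gene and mouse, and they give no order between different genes. A difference of 1 on this scale is 1 doubling.

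The 15 arrays had median sample intensities between 147.86 and 255.26 over local backgrounds of 41 to 63, and 57.26% to 90.82% of probes were well above background. The arrays fell into 4 scan sessions. Session 1 held the first mouse of each inflamed group, session 2 the first mouse of each polypoid group, session 3 the second mouse of each polypoid group and of the untreated inflamed group, and session 4 the second 5-ASA inflamed mouse. Session 3 alone held both tissues, so its difference (the mean of 2 polypoid mice minus 1 inflamed mouse) is given beside the pooled one. The polypoid mice were 1 of each arm and the inflamed mouse was untreated, so this difference mixes drug with tissue. Between the untreated mice of session 3 alone the difference was larger for every measured member. For Mmp2 it was 0.70 against 0.19, and for Mmp3 1.77 against 0.89. Epithelial markers were present in both tissues. The mean of the 8 epithelial markers lay between 2.51 and 3.25 in polypoid samples and between 2.88 and 3.29 in inflamed samples, and none of the 8 differed between tissues at an adjusted p of 0.05.

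The mouse genes for Mmp13, Mmp12, Mmp3, Mmp10 and Mmp7 stand in 1 row on chromosome 9. In RefSeq order that row runs Mmp13, Mmp12, Mmp1b, Mmp3, Mmp1a, Mmp10, Mmp8, Mmp27, Mmp20 and Mmp7, and these 10 are the only protein-coding genes in the interval. RefSeq promoters (GRCm38.p6, 250 bases before to 50 after each start) were at hand for 8 of the 10 members. They were searched on both strands for the AP-1 site TGAGTCA, the ETS (PEA3) site AGGAAG and the TCF/LEF core TCAAAG, and on the gene's own strand for the TATA box TATAAA. AP-1 is a dimer of Fos and Jun proteins, and its site near the start is a textbook feature of inducible metalloproteinase genes. The sequences below run from 100 bases before the start to 20 after it, all on the plus strand, with TGAGTCA (or its reverse complement TGACTCA) and TATAAA in capitals. They show the layout shared by the 4 measured members of the row, and beside them the promoters of Mmp14 and Timp1, 2 members elsewhere in the genome.

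Mmp7, chr9:7691990-7692109: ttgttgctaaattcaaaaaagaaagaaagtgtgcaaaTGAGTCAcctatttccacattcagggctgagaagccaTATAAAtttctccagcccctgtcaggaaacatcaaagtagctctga
Mmp10, chr9:7502242-7502361: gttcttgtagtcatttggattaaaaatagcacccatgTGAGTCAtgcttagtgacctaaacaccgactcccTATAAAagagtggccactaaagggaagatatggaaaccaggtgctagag
Mmp3, chr9:7445722-7445841: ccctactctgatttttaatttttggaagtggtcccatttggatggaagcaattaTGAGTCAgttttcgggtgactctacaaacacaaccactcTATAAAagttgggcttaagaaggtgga
Mmp13, chr9:7272414-7272533: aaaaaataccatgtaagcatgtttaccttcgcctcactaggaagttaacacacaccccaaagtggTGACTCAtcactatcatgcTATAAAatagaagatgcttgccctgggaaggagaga
Mmp14, chr14:54431498-54431617: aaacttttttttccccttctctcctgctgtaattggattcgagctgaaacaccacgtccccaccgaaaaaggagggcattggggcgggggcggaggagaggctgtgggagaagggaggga
Timp1, chrX:20870066-20870185: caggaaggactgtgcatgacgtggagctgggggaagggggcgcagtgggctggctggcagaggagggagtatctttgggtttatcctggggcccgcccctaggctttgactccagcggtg

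In the order Mmp7, Mmp10, Mmp3 and Mmp13, the AP-1 letters began at positions -63, -63, -46 and -35, and in each the TATAAA letters followed downstream. Mmp12 held the AP-1 letters at -44 from 1 of its 2 listed starts, and the second listed start of Mmp7 had none. AP-1 letters were thus present at a start of 5 members, all from the chromosome 9 row, and in none of the 300-base windows of Mmp14, Timp1 and Timp3. Among all 32851 promoters in the table, 5.2% held them. TATAAA was in the same 5 members, in Mmp12 only from position 5 after the start, and in 8.32% of all promoters. AGGAAG was in 7 of the 8 members (all but Mmp10), against 35.4% of all promoters, and TCAAAG in Mmp7 and Timp1, against 16% of all promoters. No match of one motif overlapped a match of another in the members. The member counts take a match at any listed start, and Mmp7 and Mmp12 have 2 listed starts each. The shares of all promoters count each promoter by itself, so the 2 measures are not quite alike. These are matches of letters only, and no binding was measured.

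By the brightest probe of each gene, 5 members were higher in polypoid than in inflamed areas over both treatment arms. Mmp7 was 15.5-fold, Mmp10 8.81-fold, Mmp14 2.44-fold and Timp1 1.94-fold higher, and all 4 of these probes were well above background on every array. Mmp9 was 2.42-fold higher by 1 of its 2 probes, which was not well above background on every inflamed array, and did not pass by the other. Mmp14 likewise did not pass by its other probe (1.01-fold), nor did Timp1 by its 2 other probes. In limma, 5 of the 9 measured members passed an adjusted p of 0.05 as higher in polypoid tissue, where 3.97% of all genes did, and none passed as lower, where 1.97% of all genes did. The same 5 members had every polypoid sample above every inflamed sample, which held for 8.37% of all genes. The median difference was 1.28 over the 9 members and -0.016 over all genes. Mmp3, Mmp13 and the Mmp9 probe passed the brightness filter only through polypoid groups, so these shares and medians describe the members that passed and are no support for a difference of the family. In bulk samples such as these, fewer cells of a type and less RNA per cell cannot be told apart.

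**Figure D1:**
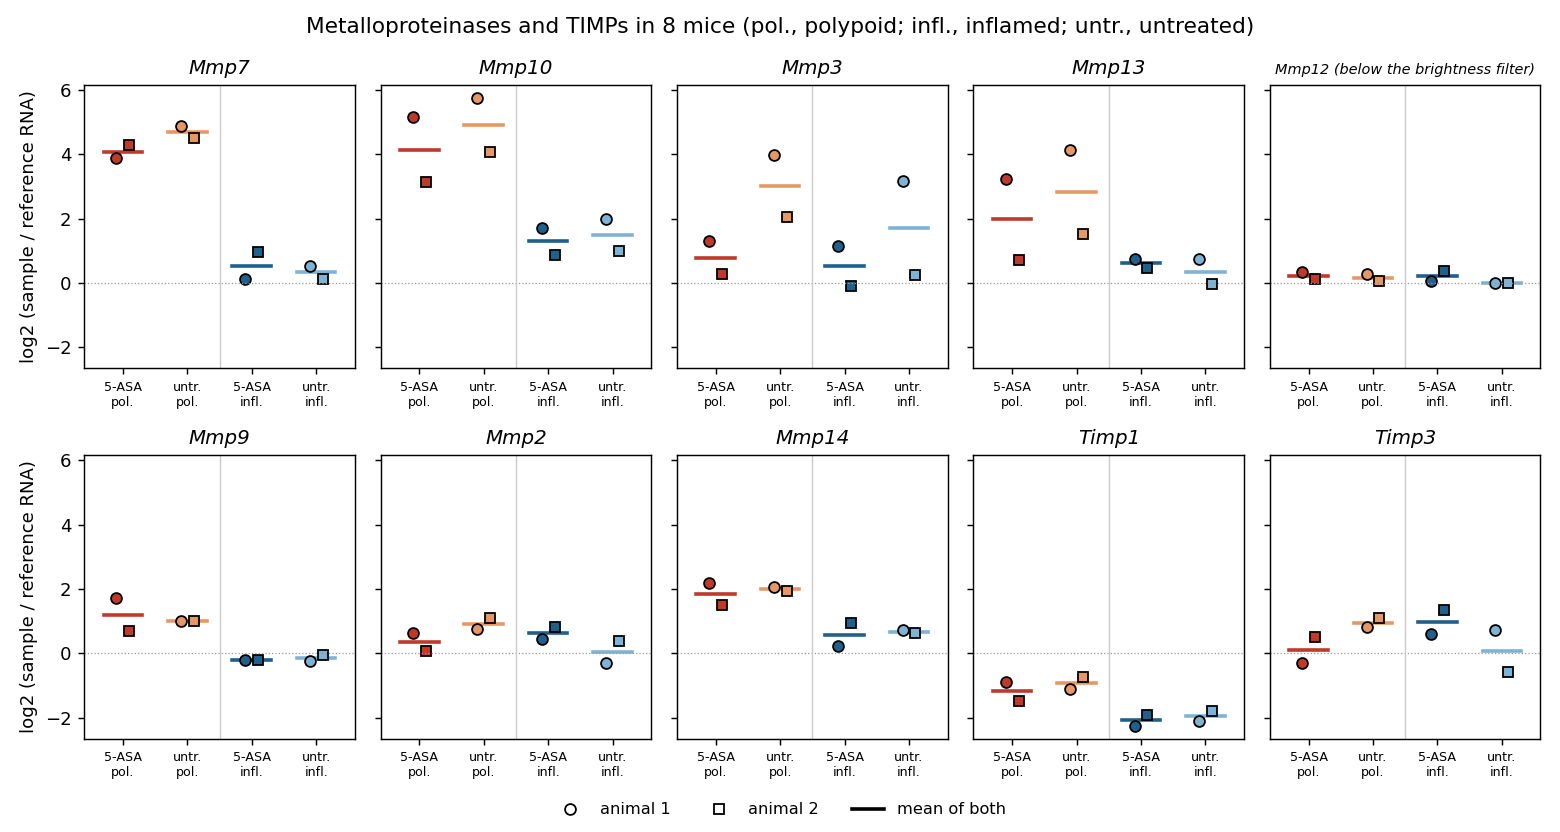
Log2 of sample over reference RNA (vertical axis) for the 10 members in each of the 8 mice, by group, with 1 point per mouse and a line at the mean of both mice. Mmp7 sits between 3.88 and 4.89 in the 4 polypoid samples and between 0.12 and 0.96 in the 4 inflamed samples, while Mmp3 and Mmp13 overlap between tissues.

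Mmp7, the epithelial matrilysin, measured 3.88 and 4.30 in polypoid tissue of 5-ASA mice and 4.89 and 4.50 in polypoid tissue of untreated mice, against 0.13 and 0.96 in inflamed tissue of 5-ASA mice and 0.55 and 0.12 in inflamed tissue of untreated mice. The lowest polypoid sample stood far above the highest inflamed one, and both polypoid groups were uniform. The difference was 3.95 ± 0.23 (SE, 4 samples against 4, limma adjusted p = 0.0034). Mmp7 also passed within each arm, at 3.55 ± 0.33 in 5-ASA mice (11.7-fold, limma adjusted p = 0.016) and 4.36 ± 0.33 in untreated mice (20.6-fold, limma adjusted p = 0.035). It was the 1 member of 9 to do so in either arm, against a background of 2.04% of all genes in 5-ASA mice and 0.16% in untreated mice. Within an arm the call was lost when any mouse of that arm was left out, and in untreated mice also without either 5-ASA polypoid mouse, while the difference stayed at 3.13 to 3.96 in 5-ASA mice and 4.15 to 4.58 in untreated mice. Within scan session 3 the difference of Mmp7 was 4.28.

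Mmp10 and Mmp3 are the stromelysins, enzymes of broad specificity that also activate other proenzymes. Mmp10 measured 5.17 and 3.13 in 5-ASA polypoid samples and 5.76 and 4.07 in untreated polypoid samples, against 1.72 and 0.88 in 5-ASA inflamed samples and 1.99 and 0.98 in untreated inflamed samples. All polypoid values lay above all inflamed values, but the mice of a group differed by as much as 2.03. The difference between tissues was 3.14 ± 0.60 (limma adjusted p = 0.039), and 2.61 within session 3. For Mmp3 the values were 1.30 and 0.28 in 5-ASA polypoid samples and 3.99 and 2.04 in untreated polypoid samples, against 1.16 and -0.08 in 5-ASA inflamed samples and 3.18 and 0.27 in untreated inflamed samples. The tissues overlapped, and the highest value of each tissue came from an untreated mouse. Its difference between tissues was 0.77 ± 0.78 (limma adjusted p = 0.61, 95% interval -1.13 to 2.68).

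Mmp13, or collagenase-3, is the main interstitial collagenase of the mouse. It measured 3.24 and 0.72 in 5-ASA polypoid tissue and 4.14 and 1.54 in untreated polypoid tissue, against 0.76 and 0.46 in 5-ASA inflamed tissue and 0.74 and -0.03 in untreated inflamed tissue. The first mouse of each polypoid group stood well above every other sample, and the lowest polypoid value lay just below the 2 highest inflamed values. The difference of 1.93 ± 0.75 did not pass (limma adjusted p = 0.20). Mmp12, the macrophage elastase, was clear of background on few arrays (3 of 8 polypoid and 1 of 7 inflamed) and was not tested. Its values ran from 0.06 to 0.35 in polypoid samples and from 0.01 to 0.39 in inflamed samples.

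The gelatinases Mmp9 and Mmp2 cut denatured collagen and basement-membrane collagen. Mmp9, which neutrophils store in granules, measured 1.70 and 0.69 in 5-ASA polypoid samples and 1.0 and 1.0 in untreated polypoid samples, against -0.21 and -0.22 in 5-ASA inflamed samples and -0.23 and -0.06 in untreated inflamed samples. The 4 inflamed samples lay close together and below every polypoid sample. The difference was 1.28 ± 0.22 (limma adjusted p = 0.031), and 0.90 within session 3. This probe was dim on inflamed arrays (5 of 7 well above background, and incomplete in both inflamed groups), and its difference was 2.49 with the scanner software's own processed signals. The other Mmp9 probe, well above background on all 7 inflamed arrays and all 8 polypoid arrays, gave 0.33 ± 0.17 (limma adjusted p = 0.33), with values of 0.04 to 0.77 in polypoid samples and -0.04 to 0.18 in inflamed samples.

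Mmp2, a gelatinase of fibroblasts that is held inactive until a membrane-type enzyme cuts it, measured 0.63 and 0.07 in 5-ASA polypoid samples and 0.75 and 1.09 in untreated polypoid samples, against 0.46 and 0.81 in 5-ASA inflamed samples and -0.30 and 0.39 in untreated inflamed samples. The tissues overlapped, and the difference was 0.29 ± 0.22 (limma adjusted p = 0.49, 95% interval -0.24 to 0.83). Mmp14 is the membrane-type enzyme that activates Mmp2. It measured 2.17 and 1.5 in 5-ASA polypoid samples and 2.06 and 1.93 in untreated polypoid samples, against 0.22 and 0.94 in 5-ASA inflamed samples and 0.72 and 0.62 in untreated inflamed samples. Polypoid samples were all higher, by 1.29 ± 0.22 (limma adjusted p = 0.028) and by 1.09 within session 3. The probes of Mmp14 disagreed, since its dimmer probe gave 0.0089 ± 0.17 (limma adjusted p = 0.98).

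Timp1, the inducible inhibitor, was lower than in the reference RNA in all 8 mice. It measured -0.89 and -1.48 in 5-ASA polypoid samples and -1.12 and -0.75 in untreated polypoid samples, against -2.25 and -1.92 in 5-ASA inflamed samples and -2.09 and -1.79 in untreated inflamed samples. Every polypoid sample was above every inflamed one, by 0.96 ± 0.19 on average (limma adjusted p = 0.040) and by 0.67 within session 3. The 2 other Timp1 probes gave 0.71 ± 0.24 (limma adjusted p = 0.16) and 0.50 ± 0.25 (limma adjusted p = 0.30), in the same direction but not past the threshold. Timp3, an inhibitor that stays bound to the matrix, measured -0.30 and 0.50 in 5-ASA polypoid samples and 0.80 and 1.09 in untreated polypoid samples, against 0.61 and 1.35 in 5-ASA inflamed samples and 0.71 and -0.60 in untreated inflamed samples. The tissues overlapped throughout, and the difference was 0.0060 ± 0.36 (limma adjusted p = 0.99, 95% interval -0.86 to 0.88). Within session 3 it was 1.39, with the lone inflamed mouse of that session the lowest of the 8 mice.

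**Figure D2:**
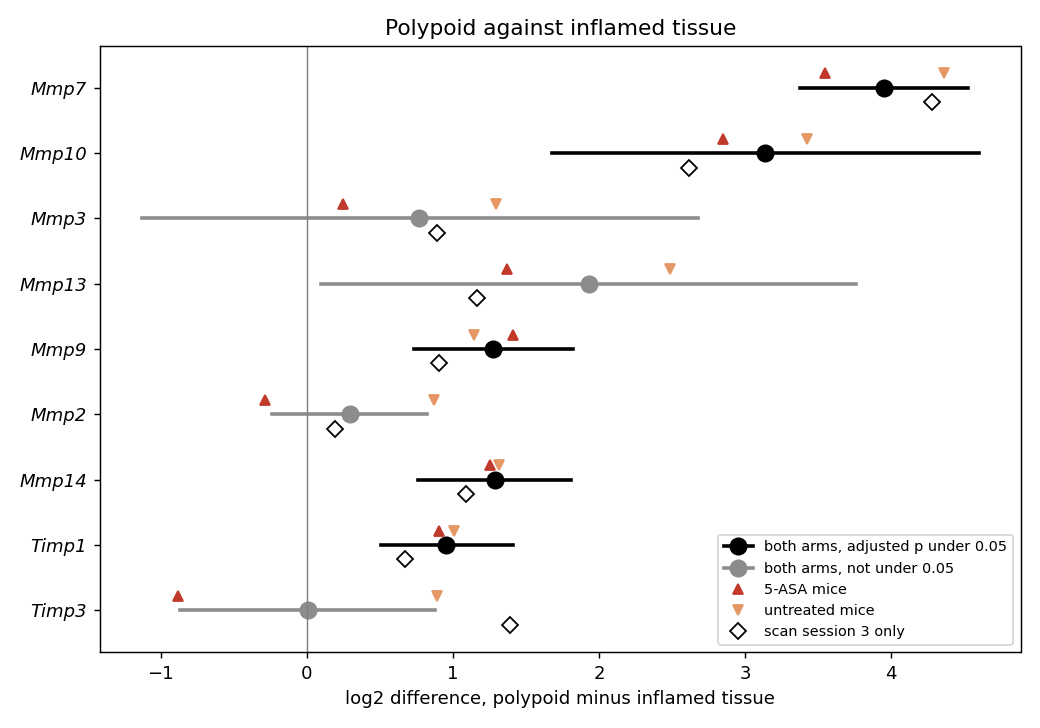
Log2 difference of polypoid minus inflamed tissue (horizontal axis) for the 9 measured members, with the fit over both arms and its 95% interval, the fits in 5-ASA mice and in untreated mice, and the difference within scan session 3. Mmp7, Mmp10, Mmp9, Mmp14 and Timp1 are drawn in black (adjusted p under 0.05). All 9 session 3 values are positive, from 0.19 for Mmp2 to 4.28 for Mmp7. Each sets the mean of a 5-ASA and an untreated polypoid mouse against an untreated inflamed mouse.

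With 2 mice a group the number of calls rested on every mouse being kept. A fit without 1 mouse had 3 residual degrees of freedom in place of 4. Fewer of all genes were called as higher in each such fit too, so the fall was not particular to the members. Without 5-ASA polypoid mouse 1 or 2, the members called as higher in polypoid tissue numbered 2 and 4. Leaving out untreated polypoid mouse 1 or mouse 2 gave 1 each. Leaving out 5-ASA inflamed mouse 1 gave 1 and mouse 2 gave 2, and leaving out either untreated inflamed mouse gave 1. Mmp7 was called in all 8 of these fits, and the differences of the 5 called members stayed positive, with ranges of 3.75 to 4.16 for Mmp7, 2.63 to 3.65 for Mmp10, 1.11 to 1.47 for Mmp14, 1.02 to 1.53 for Mmp9 and 0.81 to 1.1 for Timp1. With scan session as a block, which left 1 residual degree of freedom, no gene of the 21301 passed (smallest limma adjusted p = 0.33), although 3055 had an unadjusted p under 0.05. The mean of a gene's probes left Mmp7 and Mmp10 as the 2 members called. The call of Timp1 was lost with the deposited value table and with scale normalization between arrays, and that of Mmp10 with no brightness filter. A filter that asked for every array put the other Mmp9 probe in place of the first, so that Mmp9 stood at 0.33 (limma adjusted p = 0.32) and was not called. The fitted differences with the session block were 4.49 for Mmp7, 2.75 for Mmp10, 1.34 for Mmp14, 0.89 for Mmp9 and 0.75 for Timp1.

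The counts of called markers stand against 3.97% of all genes called as higher and 1.97% as lower in polypoid tissue. The share of all genes that were on average higher was not counted, and the median difference over all genes was -0.016. Markers of neutrophils, which carry Mmp8 and Mmp9, were higher in polypoid tissue, as the called members were. All 7 measured neutrophil markers of 10 were on average higher in polypoid tissue and 3 passed: S100a9 (20-fold, limma adjusted p = 0.0024), S100a8 (22.2-fold, limma adjusted p = 0.0063) and Retnlg (limma adjusted p = 0.024), which 2 of 7 inflamed arrays showed well above background and which was at least 5.79-fold higher. The bound sets the polypoid mean against an inflamed mean. On each inflamed array it takes the higher of the gene's own signal and the lowest signal that was well above background. The bound was not tested, and the p-value of Retnlg is that of its fitted difference. Elane, Ngp and Camp were below the brightness filter. The mean of the list lay between 1.77 and 2.75 in polypoid samples, above the 0.29 to 0.59 in inflamed samples. Retnlg passed the brightness filter only through polypoid groups. The count and mean of the list thus describe the markers that passed and are no support for a difference of the list. Smooth muscle markers ran the other way, with 4 of 8 called as lower in polypoid tissue (Lmod1, Myl9, Tagln and Cnn1, limma adjusted p = 0.018 to 0.046) and list means of 0.57 to 1.17 in polypoid samples against 1.35 to 3.52 in inflamed samples. None of 10 fibroblast markers, 10 macrophage markers, 5 endothelial markers or 8 lymphocyte markers passed in either direction. Fibroblast means were -0.56 to -0.014 in polypoid samples and -0.099 to 0.16 in inflamed samples, and macrophage means were 1.61 to 2.18 in polypoid samples and 1.77 to 2.31 in inflamed samples. Endothelial means were 1.32 to 2.09 in polypoid samples and 1.41 to 2.05 in inflamed samples, and lymphocyte means were -0.36 to 0.67 in polypoid samples and 0.023 to 1.45 in inflamed samples. The part of these cells in the members' differences was not tested.

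**Figure D3:**
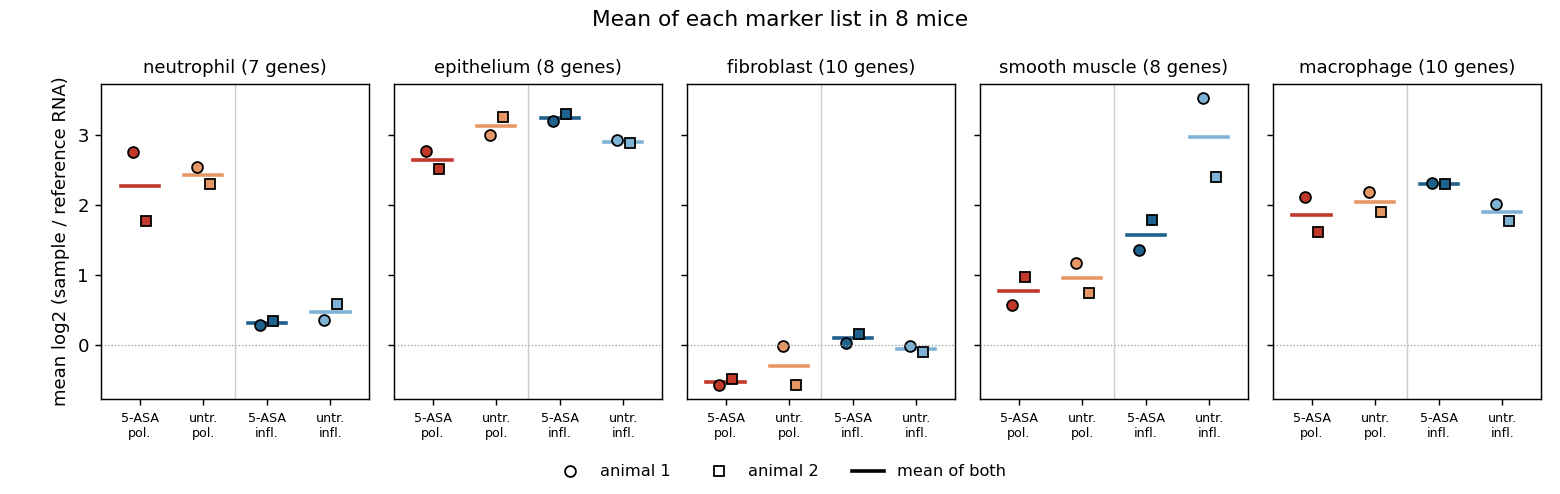
Mean log2 of sample over reference RNA (vertical axis) of 5 marker lists in each of the 8 mice, by group, with 1 point per mouse and a line at the mean of both mice. The neutrophil list is higher in all 4 polypoid samples (1.77 to 2.75) than in all 4 inflamed samples (0.29 to 0.59), the smooth muscle list is lower in all 4, and the epithelial, fibroblast and macrophage lists overlap.

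The counts that follow, for genes of the same proteolytic system, stand against 3.97% of all genes called as higher and 1.97% as lower in polypoid tissue. Of 11 other metalloproteinases measured, 1 was called. This was Mmp8, the neutrophil collagenase and the neighbour of Mmp10 in the chromosome 9 row, which stood well above background on all 8 polypoid arrays but on 0 of 7 inflamed ones. Its fitted difference was 0.88 (limma adjusted p = 0.035), which rests on inflamed signals that were not well above background. By a bound taken as for Retnlg, and not tested, Mmp8 was at least 1.49-fold higher in polypoid tissue. Mmp8 passed the brightness filter only through polypoid groups, so its call and this count are no support for a difference of these genes. Mmp1a, between Mmp3 and Mmp10 in the row, differed by -0.12. None of 4 other inhibitors measured (Timp2, Timp4, Reck and A2m) was called in either direction.

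Of 6 measured genes of plasminogen activation, 1 was called as higher in polypoid tissue. Plat, the tissue-type activator of plasminogen, measured 2.62 and 2.35 in 5-ASA polypoid samples and 2.04 and 1.41 in untreated polypoid samples, against -0.27 and -0.26 in 5-ASA inflamed samples and -0.87 and -0.60 in untreated inflamed samples. It was 6.08-fold higher by the brighter of its 2 probes (limma adjusted p = 0.0035). Among 13 ADAM and ADAMTS proteases, Adam8, a membrane protease of leukocytes, was 5.89-fold higher (limma adjusted p = 0.020) and Adam15, another membrane-bound member, fell by 0.77 on the log2 scale with some overlap between tissues (limma adjusted p = 0.039).

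Of 19 matrix substrates measured, 2 were higher and 1 was lower in polypoid tissue. Spp1 (osteopontin, a secreted matrix phosphoprotein) was 11.6-fold higher (limma adjusted p = 0.015) and Lama5, a laminin chain of basement membranes, 4.3-fold higher (limma adjusted p = 0.010). Postn (periostin, a matrix protein of fibroblasts) fell by 2.16 on the log2 scale (limma adjusted p = 0.041). No collagen gene of the list passed. Of 14 AP-1 and ETS factors, 3 were called as higher: Ets2 at 2.31-fold, Jun at 1.72-fold and Etv5 at 1.5-fold (limma adjusted p = 0.031, 0.027 and 0.021 in that order). Among 11 cytokines and growth factors known to induce metalloproteinases, 1 was called, Il1b at 9.33-fold (limma adjusted p = 0.025). Il1b measured 7.21 and 5.18 in 5-ASA polypoid samples and 6.44 and 5.35 in untreated polypoid samples, against 2.18 and 3.17 in 5-ASA inflamed samples and 3.04 and 2.89 in untreated inflamed samples.

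Members differed in how far the mice of 1 group lay apart. Mmp10, Mmp3 and Mmp13, all from the chromosome 9 row, were higher in the first than in the second mouse of all 4 groups, by means of 1.39, 1.78 and 1.55. For Mmp3 the gap was 1.02 in 5-ASA polypoid samples, 1.95 in untreated polypoid samples, 1.24 in 5-ASA inflamed samples and 2.91 in untreated inflamed samples. For Mmp13 it was 2.52 in 5-ASA polypoid samples, 2.60 in untreated polypoid samples, 0.30 in 5-ASA inflamed samples and 0.77 in untreated inflamed samples. These 3 of 9 members stand against 12.1% of all genes with the first mouse higher in all 4 groups, and against 0.648% with a mean gap of 1 or more besides. Mmp7, the other measured member of the row, had a mean gap of -0.10 and no common direction. The first mice were scanned in sessions 1 and 2 and the second in sessions 3 and 4, so mouse and session cannot be told apart here.

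**Figure D4:**
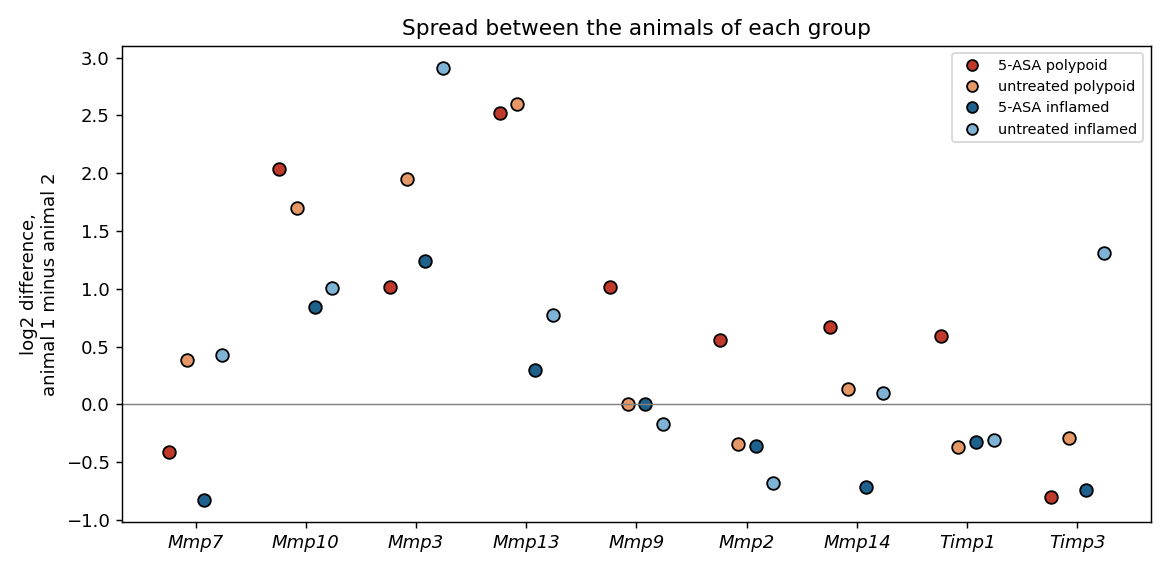
Log2 difference between mouse 1 and mouse 2 of each group (vertical axis) for the 9 measured members, with 1 point per group. All 4 points lie above 0 for Mmp10, Mmp3 and Mmp13, up to 2.91 for Mmp3 in untreated inflamed tissue, while the other 6 members have points on both sides.

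The genes with profiles nearest to a member's over the 8 mice, each centred on its own mean, were found by the root mean square of the log2 differences. For Mmp7 they were Lgr5 (0.388), Notum (0.395) and Apobec2 (0.417). Those nearest to Mmp10 were Retnlg (0.551), Arg1 (0.623) and Il1b (0.65), the first a neutrophil marker of the list above. Retnlg was well above background on only 2 of 7 inflamed arrays. It stayed between 0.049 and 0.12 in inflamed samples, where Mmp10 ran from 0.88 to 1.99. Whether neutrophils were a source of Mmp10 was not tested. For Mmp2 the nearest genes were LOC623030 (0.183), Clca3a1 (0.195) and Psmd8 (0.198), and for Timp1 Blvrb (0.121), Aunip (0.137) and Pole2 (0.14). A smaller value means a closer profile, and members that vary less reach smaller values.

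The comparison of 5-ASA with untreated mice asks whether the drug went with other levels of these enzymes in either tissue. No member was called. In limma, 0 of 9 members and 0% of all genes passed for 5-ASA over untreated mice in both tissues together, in polypoid tissue (0%), in inflamed tissue (0%) and for the difference of the drug's effect between tissues (0%). At an unadjusted p under 0.05 there were 1360, 1653, 933 and 1272 genes in these 4 comparisons in that order, among them 0, 0, 0 and 2 members. No gene of the 7 pathway lists or of the 7 marker lists was called for the drug in both tissues together.

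Mmp3 had the largest difference of the 9 members, and it was lower with the drug. Over both tissues it was -1.71 ± 0.78 (limma adjusted p = 0.79, 95% interval -3.61 to 0.20), at -2.23 ± 1.11 in polypoid tissue and -1.18 ± 1.11 in inflamed tissue. In polypoid tissue both 5-ASA mice (1.30 and 0.28) lay below both untreated mice (3.99 and 2.04). In inflamed tissue the 5-ASA mice (1.16 and -0.08) overlapped the untreated mice (3.18 and 0.27). Between mice scanned in the same session, 5-ASA minus untreated was -2.69 and -1.76 in polypoid tissue (sessions 2 and 3) and -2.02 in inflamed tissue (session 1), each from 1 mouse against 1. Mmp3 was the 1 member below the untreated mouse by more than 1 in all 3 sessions, as were 0.0282% of all genes (6 genes). Mmp3 was singled out after its values were seen, and the session values are a description with no test. With scan session as a block its difference was -2.12 ± 0.27 (limma adjusted p = 1.0).

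The other members showed smaller differences. Mmp7 was -0.20 ± 0.23 over both tissues (95% interval -0.77 to 0.37), Mmp10 -0.48 ± 0.60 (-1.94 to 0.99) and Mmp13 -0.30 ± 0.75 (-2.13 to 1.54). Mmp14 was -0.13 ± 0.22 (-0.65 to 0.40), Mmp9 0.063 ± 0.22 (-0.48 to 0.60) and Timp1 -0.20 ± 0.19 (-0.65 to 0.26). The limma adjusted p-values of the 9 members ran from 0.79 to 1. The intervals of Mmp3, Mmp10 and Mmp13 are wide enough to hold changes of several fold, so these values do not show that the drug left them alone. Within sessions, Mmp7, Mmp3, Mmp10 and Timp3 were lower in the 5-ASA mouse in all 3 pairs, which held for 14.2% of all genes. For Mmp7 the pairs were -1.0 and -0.20 in polypoid tissue and -0.42 in inflamed tissue, and for Mmp10 -0.60 and -0.93 in polypoid tissue and -0.27 in inflamed tissue.

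**Figure D5:**
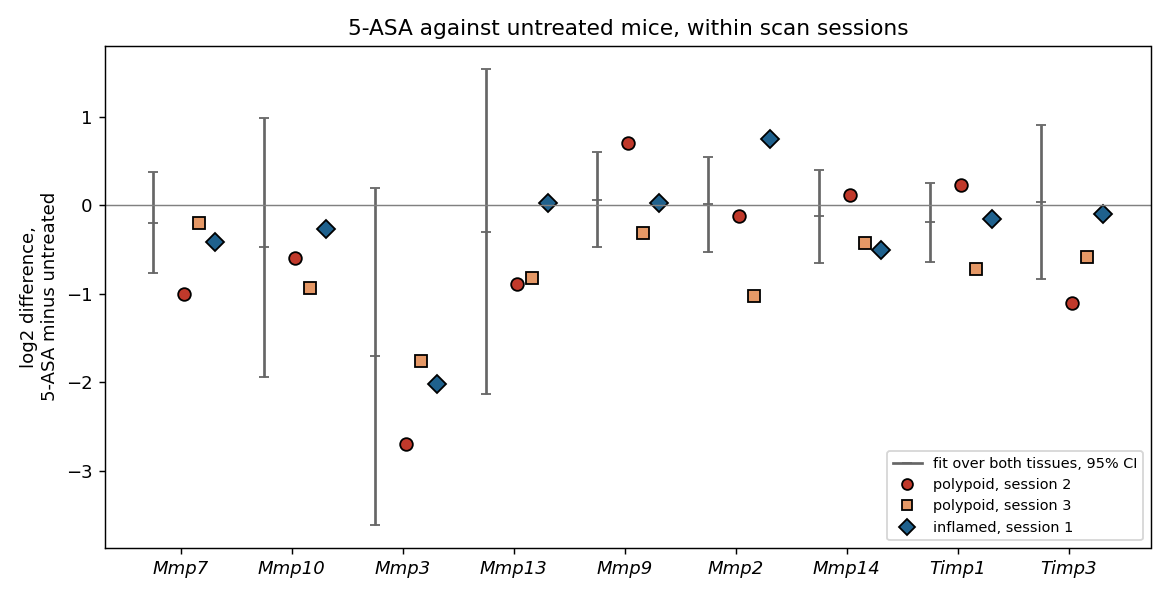
Log2 difference of 5-ASA minus untreated mice (vertical axis) for the 9 measured members, with the fit over both tissues and its 95% interval in grey and 1 point for each pair of mice scanned in the same session. The 3 points of Mmp3 lie between -2.69 and -1.76, and the intervals of all 9 members include 0.

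Mmp2 and Timp3 were the 2 members with an unadjusted p under 0.05 for a difference of the drug's effect between tissues, as had 5.97% of all genes, and neither passed adjustment. For Mmp2 5-ASA minus untreated was -0.57 ± 0.31 in polypoid tissue and 0.59 ± 0.31 in inflamed tissue, a difference of -1.16 ± 0.44 (limma adjusted p = 0.82). In each tissue the 5-ASA mice and the untreated mice did not overlap for Mmp2. For Timp3 5-ASA minus untreated was -0.85 ± 0.51 in polypoid tissue and 0.92 ± 0.51 in inflamed tissue, a difference of -1.77 ± 0.71 (limma adjusted p = 0.83). The polypoid samples of the 2 arms did not overlap for Timp3, and the inflamed samples did. How many of all genes separate 2 mice from 2 in this way was not counted, so these separations of Mmp2 and Timp3 are a description only.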

How the data were processed

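The deposited scanner files give spot and background intensity in both channels, read with Agilent Feature Extraction 9.1.1.1, per the file headers. The authors also deposited log2 ratios of sample over reference, whose correlation with the ratios computed here was 0.996 to 1 across arrays (column medians -0.0121 to 0.0308). Its normalization is not given in the sources used here.

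Of 43790 spots, 2256 were controls. Background was corrected by normexp (offset 50), channels were normalized by loess within arrays, swapped arrays were turned, and a fit of animal plus dye gave 1 value per mouse (R 4.3.3, limma 3.58.1). Of the 8 mice, 7 had both dye orientations, and the second 5-ASA inflamed mouse had 1 array. Probes were kept when well above background on every array of a group, and the brightest probe stood for its gene. Among the called list genes, Plat, Adam15, Postn and Tagln had 2 such probes each, and only the brighter is given here. Genes were named by accession (22864 probes), by name (10230) or by the array's name (8080). Of the genes tested, 2 lacked a value in 1 mouse.

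Groups were compared with limma (4 residual and 2.14 prior degrees of freedom) with Benjamini-Hochberg adjustment over 21301 genes. The p-values measure the spread between these mice, 2 a group, and that number limits the precision. The members, gene lists and alternatives were chosen with earlier results of these data known. Named genes were all members, up to 4 called genes of each list with the smallest p, and the 3 nearest profiles of Mmp7, Mmp10, Mmp2 and Timp1. Promoters came from RefSeq (GRCm38.p6). The array files name no genome build, so gene positions served only for order.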

Additional observations from a re-analysis of the deposited data

Results flagged for a closer look

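Mmp9 in inflamed tissue measured -0.057 in untreated mouse 2, set apart from the other 3 inflamed samples, which lay between -0.23 and -0.21. Its gap to the nearest of them was 0.876 of the whole range of the 4 samples. Chance gives such a gap in about 1 of 20 sets, and 18 sets of 4 samples were examined. The gap is small beside the difference between tissues, and 5 of the 7 inflamed arrays had this probe well above background.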

How the results depend on the processing

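For polypoid over inflamed tissue in both arms, 5 members were called. The count was 2 with the mean of a gene's probes, 0 with scan session as a block, 5 with the replicate block, and 1 to 4 when 1 mouse was left out. In untreated mice the count of 1 became 0 with scale normalization and with the session block, and was 0 to 1 when 1 mouse was left out. In 5-ASA mice the count of 1 became 3 with the scanner's processed signals, 2 with the replicate block (Mmp10 beside Mmp7) and 0 with the session block. Leaving out any mouse of that arm lost the call of Mmp7, so a call left in such a fit was another member's. The counts of 0 for the drug were 0 under each alternative run. With 1 mouse left out, the replicate block or the session block, fewer degrees of freedom remain by construction. For the other alternatives the cause was not tested.

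Signs turned as follows. For polypoid over inflamed tissue Mmp2 was -0.18 with the session block, and Timp3 was -0.026 with processed signals and -0.32 to 0.33 leaving out 1 mouse. For 5-ASA over untreated mice, with processed signals, Mmp9 was -0.29, Mmp2 -0.025 and Timp3 -0.014. Mmp2 was -0.0086 without the dye term, and Timp3 was -0.0088 with scale normalization and -0.47 with the session block. Leaving out 1 mouse gave -0.40 to 0.011 for Mmp7, -0.99 to 0.030 for Mmp10, -0.95 to 0.35 for Mmp13, -0.19 to 0.32 for Mmp9, -0.16 to 0.18 for Mmp2, -0.31 to 0.053 for Mmp14 and -0.29 to 0.37 for Timp3. None of these had passed the threshold. The fits of each Mmp9, Mmp14 and Timp1 probe by itself were added after seeing the data.

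Same-numbered mice deviated together at r of 0.0341 to 0.363 over genes, with 2 of the 6 pairs of groups under 0.1, and the numbers also follow scan session, so they were not taken to pair the mice. With the replicate block, Mmp3 for 5-ASA over untreated mice was -1.71 ± 0.33 (limma adjusted p = 0.45). Dim probes limit Mmp3, Mmp13 and Mmp9, with 5 of 7 inflamed arrays well above background for each.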
